A study of Homo sapiens with 24 samples.

Results

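The 9 genes described here are the D-type cyclins CCND1, CCND2 and CCND3, their kinase partners CDK4 and CDK6, the RB family genes RB1, RBL1 and RBL2, and MYEOV, which lies next to CCND1 on chromosome 11. They were chosen by name, and they are 9 of the 26475 genes in each table. RNA was sequenced from 24 libraries of 2 metastatic clear cell renal cell carcinoma (ccRCC) lines, 786-M1A, a derivative of 786-O, and OS-LM1, a derivative of OS-RC2. Each line carried shPAX8-1, shPAX8-2 or sgNTC18, with 4 replicates of each, so that there were 6 groups of 4. The shPAX8 constructs are lentiviral RNA interference hairpins against PAX8, a transcription factor of the renal lineage, and sgNTC18 is by its name a non-targeting guide RNA for CRISPR. All cells grew in RPMI with serum, and both lines lack functional VHL, the tumour suppressor that marks HIF proteins for degradation. No library with a control hairpin was analysed here. Any shPAX8 group therefore differed from the sgNTC18 group of its line in the kind of construct as well as in its target, and the effects of both cannot be told apart. Nothing in the labels says that the replicates were separate cultures, so p-values measure the spread between these libraries, which may be technical.

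D-type cyclins bind CDK4 or CDK6 in the G1 phase, and the active kinases phosphorylate the RB family proteins. Unphosphorylated RB1, RBL1 and RBL2 hold back E2F transcription factors, whose target genes carry the cell into DNA replication. In ccRCC, loss of VHL leaves HIF2A active, and CCND1 is a well-known gene under HIF2A control in kidney cells, while MYEOV is best known from cancers in which the CCND1 region is amplified or rearranged.

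The guide strands of both hairpins are shown because the constructs are compared below, with the seed (bases 2 to 8) in capitals, and the PAX8 sites they match follow with the seed match in capitals.
shPAX8-1 guide: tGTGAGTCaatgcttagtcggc
shPAX8-1 site: gccgactaagcattGACTCACa
shPAX8-2 guide: tAGAGTTGtgttaataatggag
shPAX8-2 site: ctccattattaacaCAACTCTa
The shPAX8-1 site lies at chr2:113241690-113241711 of GRCh38, on the minus strand, in exon 7 of the 12 exons of PAX8 and ahead of its 3′ UTR. The shPAX8-2 site lies at chr2:113218122-113218143 on the same strand, in exon 12 and in the 3′ UTR. The shPAX8-1 seed match was absent from the 3′ UTRs of all 9 members, against 6.79% of 18748 genes with an annotated 3′ UTR that held one. For shPAX8-2 the share over all genes was 10.4%, and the 3′ UTR of CCND2 held 2 matches and those of CCND3, CDK6 and MYEOV 1 each. These 3′ UTRs were 5344, 988, 10219 and 895 bases long, in that order, and the shares over all genes were not matched for length. A match to 7 letters is a description of the sequence and not a site of action.

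PAX8 itself was lower in every shPAX8 library than in any sgNTC18 library of its line. Its level, in CPM (read counts scaled to a common, normalized library size), was 292, 393, 359.8 and 319 with sgNTC18 in 786-M1A, 22.9, 21.9, 15.2 and 14.8 with shPAX8-1, and 41.4, 45.5, 42.6 and 39.99 with shPAX8-2. In OS-LM1 it was 262, 279, 245 and 254 with sgNTC18, 85.6, 78.4, 59.8 and 89.2 with shPAX8-1, and 76.2, 63.8, 97.0 and 79.9 with shPAX8-2. The constructs thus left different amounts of PAX8 transcript in 786-M1A (log2 fold change of shPAX8-1 against shPAX8-2 -1.18, adjusted p = 6.3e-07 by edgeR's quasi-likelihood test with Benjamini-Hochberg adjustment), whereas in OS-LM1 the difference was -0.02 (95% CI -0.31 to 0.27, adjusted p = 0.94). With the trend of each library with GC content removed, an alternative, the difference was -0.82 in 786-M1A (edgeR adjusted p = 1.4e-08) and 0.11 in OS-LM1 (adjusted p = 0.37). In these bulk libraries, less RNA of a gene per cell and fewer cells that express it cannot be told apart.

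Libraries held 11634419 to 52059375 expected counts in all, and the 8 with sgNTC18 were deeper (median 32029482.5) than the 16 with a hairpin (median 18200166). Log2 fold changes followed the GC content of the genes to different degrees (Spearman's rho over 15225 genes from -0.525 for shPAX8-1 against shPAX8-2 in 786-M1A to 0.390 for the difference of that contrast between the lines). In 786-M1A with shPAX8-1, replicates 1 and 2 stood apart from replicates 3 and 4, and calls of members that changed when either pair was left out are given below. Of 10 renal carcinoma markers, 8 to 10 had a mean over 1 CPM in each group, with CA9 at 0 in all 786-M1A sgNTC18 libraries, and among 9 markers of leukocytes, endothelium and fibroblasts CD3E was at 0 throughout and PTPRC, PECAM1, CDH5 and VWF had group means of at most 0.492 CPM. The summed level of these 9 ranged over 534 to 724, 200.1 to 420.4 and 665 to 886 CPM with sgNTC18, shPAX8-1 and shPAX8-2 in 786-M1A, nearly all of it PDGFRB, which fibroblasts and pericytes express, and over 2.37 to 8.31 CPM in the OS-LM1 libraries. In 786-M1A, LUM of fibroblasts was higher with shPAX8-1 and shPAX8-2 than with sgNTC18 (2.54 and 2.41 on the log2 scale, adjusted p = 9.3e-08 and 4.1e-07, at group means of 6.12, 5.59 and 1.01 CPM), as was LYZ of myeloid cells (1.05 and 1.34, adjusted p = 0.015 and 0.0029), and in OS-LM1 LUM was higher with shPAX8-1 (1.94, adjusted p = 1.9e-05). Of these 9 markers 4 were tested, and in OS-LM1 2 were called higher with shPAX8-1 (34% of genes tested were) and 1 with shPAX8-2 (31.4%). With sgNTC18, shPAX8-1 and shPAX8-2 there, PDGFRB had group means of 0.117, 0.663 and 0.940 CPM, and DCN 0.0798, 0.711 and 0.292 CPM. The sum of the renal markers was 1125 to 2192 CPM over all libraries. The part of depth, GC content and these markers in the results below was not tested beyond the alternatives named there.

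CCND1 was by far the most abundant D-type cyclin in all 6 groups, CCND3 came second, and CCND2 was near the limit of detection. In TPM, the transcript abundance scale that corrects for gene length, the mean level of CCND1 was 269 ± 12.2 (SD, n = 4) with sgNTC18 in 786-M1A, and that of CCND3 was 121 ± 13.5 (n = 4). In OS-LM1 with sgNTC18 the corresponding levels were 224 ± 31.6 and 50.2 ± 7.37 TPM. CCND2 received 16 expected counts over all libraries together, in 8 of the 24, with at most 5 in any of them. Its highest value was 0.261 CPM, and a floor of 3 counts corresponds to between 0.0626 and 0.249 CPM depending on the library, so no difference in CCND2 was detectable at this depth and it was not tested.

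The other 8 members were among the 15665 genes tested, and each had counts in all libraries. The plot of CPM by library gives every value.

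**Figure D1:**
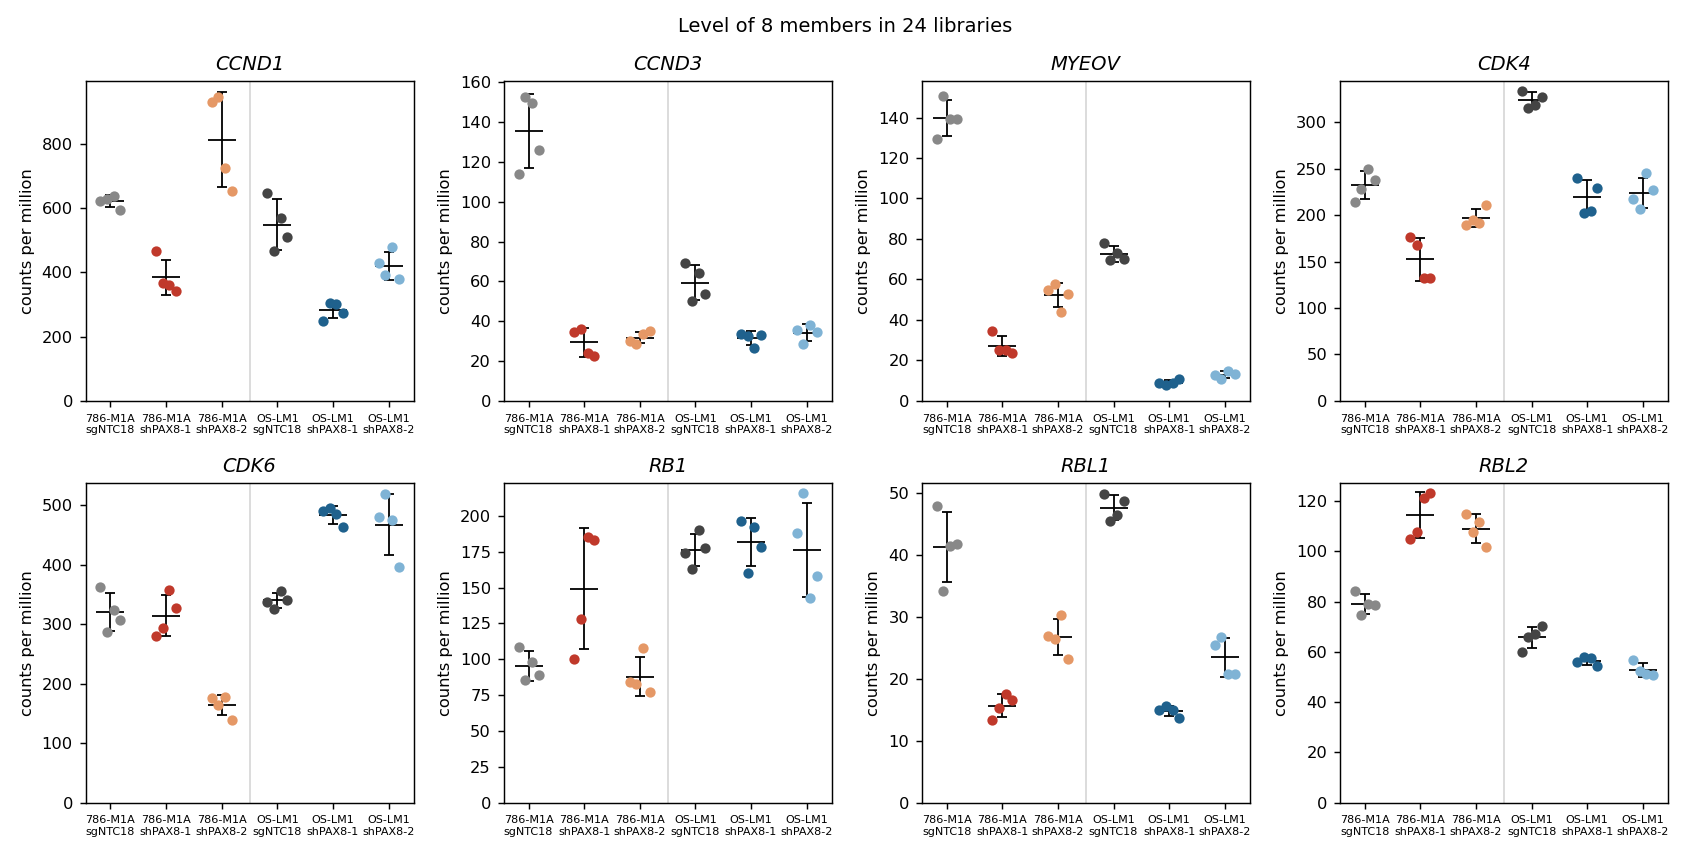
Level of the 8 tested members in each of the 24 libraries, in CPM on an axis that starts at 0 and differs between panels, by line and construct. Points are libraries, and black marks are group means with their SD (n = 4). MYEOV in OS-LM1 lies at 14.7 CPM or less in all 8 shPAX8 libraries and at 69.8 CPM or more with sgNTC18, whereas CCND1 in 786-M1A lies above the sgNTC18 libraries with shPAX8-2 and below them with shPAX8-1.

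The direction of CCND1 against sgNTC18 differed between the constructs in 786-M1A. With sgNTC18 the libraries had 623, 630.0, 639 and 595 CPM, with shPAX8-1 466, 368, 362 and 341 CPM, and with shPAX8-2 932, 945, 724 and 654 CPM. In CPM, all shPAX8-1 libraries were below and all shPAX8-2 libraries above the sgNTC18 range, and replicates 1 and 2 were the highest with both hairpins. Replicate 4 of shPAX8-2, at 654 CPM, was only just above the highest sgNTC18 library. In deposited TPM that replicate (255) lay within the sgNTC18 range (253 to 283). CCND1 was 1.62-fold lower with shPAX8-1 than with sgNTC18 (log2 fold change -0.69, 95% CI -0.94 to -0.44, adjusted p = 1.4e-05) and 1.31-fold higher with shPAX8-2 (0.39, 0.14 to 0.64, adjusted p = 0.007). The contrasts share their sgNTC18 libraries. Without replicates 1 and 2 of shPAX8-1 its log2 fold change against sgNTC18 was -0.80 (adjusted p = 1.1e-05), and without replicates 3 and 4 it was -0.54 (adjusted p = 0.0019). For shPAX8-2 no pair of libraries was left out. With single libraries left out its log2 fold change ranged over 0.31 to 0.48 (edgeR adjusted p up to 0.041).

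In OS-LM1, CCND1 fell with both constructs, and further with shPAX8-1. The sgNTC18 libraries had 649, 466, 570.4 and 512 CPM, the shPAX8-1 libraries 250.2, 304, 302 and 275 CPM, and the shPAX8-2 libraries 430.1, 393, 479 and 381 CPM. The shPAX8-1 libraries lay below all others, while the highest shPAX8-2 library exceeded the lowest sgNTC18 library. CCND1 was 1.94-fold lower with shPAX8-1 (log2 fold change -0.96, 95% CI -1.21 to -0.71, adjusted p = 1.3e-07) and 1.31-fold lower with shPAX8-2 (-0.38, -0.63 to -0.14, adjusted p = 0.0074). Between the constructs the difference was -0.57 (adjusted p = 0.00096) at PAX8 levels that overlapped. The change with shPAX8, averaged over both constructs, differed between the lines by -0.52 (OS-LM1 minus 786-M1A, 95% CI -0.82 to -0.21, adjusted p = 0.004).

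CCND3 fell with both constructs in both lines, and most in 786-M1A. There the sgNTC18 libraries had 114, 152, 149 and 126 CPM, against 34.7, 36.2, 24.1 and 22.4 CPM with shPAX8-1 and 29.98, 28.8, 33.5 and 34.9 CPM with shPAX8-2. The highest shPAX8 library, at 36.2 CPM, lay far below the lowest sgNTC18 library, at 114 CPM. The log2 fold changes were -2.20 (95% CI -2.51 to -1.90, adjusted p = 7.9e-13) and -2.09 (-2.40 to -1.79, adjusted p = 4.5e-12).

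In OS-LM1, CCND3 started lower and, in the reported fit, ended at much the same level as in 786-M1A. It had 69.1, 50.1, 64.4 and 53.9 CPM with sgNTC18, 33.8, 32.6, 26.7 and 33.2 CPM with shPAX8-1, and 35.6, 28.4, 38.3 and 34.5 CPM with shPAX8-2. Groups with and without shPAX8 did not overlap, and the log2 fold changes were -0.91 (adjusted p = 3.9e-06) and -0.79 (adjusted p = 2.9e-05). The lines differed by -1.19 with sgNTC18 (OS-LM1 minus 786-M1A, adjusted p = 5.1e-08), by 0.11 with shPAX8 (95% CI -0.11 to 0.32, adjusted p = 0.34), and in the change itself by 1.30 (0.94 to 1.66, adjusted p = 5.8e-07). The difference with shPAX8 was called with the GC trend removed (0.44, adjusted p = 1.9e-06). It was also called without replicates 1 and 2 of 786-M1A shPAX8-1 (0.26, adjusted p = 0.014), but not without replicates 3 and 4 (-0.05, adjusted p = 0.61). Unlike CCND1, CCND3 showed no called difference between the constructs, at -0.11 in 786-M1A (95% CI -0.41 to 0.19, adjusted p = 0.56) and -0.12 in OS-LM1 (-0.42 to 0.18, adjusted p = 0.61). In 786-M1A that difference was -0.46 (adjusted p = 0.011) without replicates 1 and 2 of shPAX8-1 and 0.17 (adjusted p = 0.45) without replicates 3 and 4.

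The balance of the D-type cyclins differed between groups as these levels imply. CCND1 made up 69.0% ± 2.59 (SD, n = 4) of D-type cyclin TPM with sgNTC18 in 786-M1A, 86.4% ± 2.30 with shPAX8-1 and 92.3% ± 1.95 with shPAX8-2. In OS-LM1 its share was 81.7% ± 0.474 with sgNTC18, 81.1% ± 2.72 with shPAX8-1 and 85.6% ± 1.14 with shPAX8-2. The summed level of the D-type cyclins was 390 ± 17.6, 178 ± 28.3 and 349 ± 58.8 TPM in the 3 groups of 786-M1A, in the order just given, and 274 ± 38.9, 145 ± 20.4 and 196 ± 25.3 TPM in those of OS-LM1. In 786-M1A the share of CCND1 was thus higher in all shPAX8 libraries than with sgNTC18, and in both lines the mean sum was lowest with shPAX8-1. These shares are a description without a test.

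**Figure D2:**
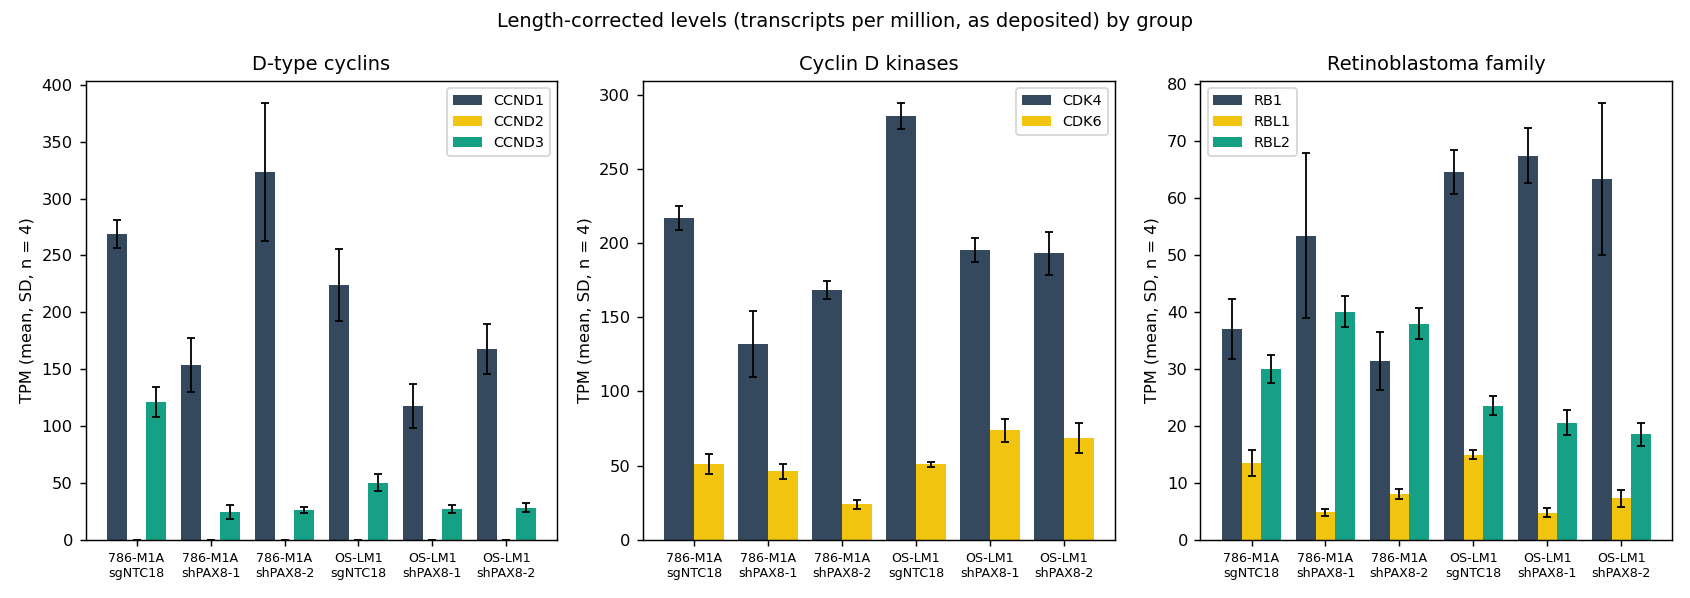
Mean deposited TPM of the D-type cyclins, of CDK4 and CDK6, and of the RB family genes, as bars by group with the SD (n = 4). The CCND1 bar is the tallest of the D-type cyclins in each group, and the CCND3 bar is tallest with sgNTC18 in 786-M1A (121 TPM).

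MYEOV showed the largest decreases against sgNTC18 of the tested members in each of the 4 contrasts with sgNTC18 except shPAX8-2 in 786-M1A, where that of CCND3 was larger. Without replicates 1 and 2 of shPAX8-1 the order of these genes with shPAX8-1 in 786-M1A turned as well (CCND3 -2.53, MYEOV -2.50), and differences between genes were not tested. The gene lies at chr11:69294155-69297287 of GRCh38, and 344 kb separate its end from the start of CCND1 (chr11:69641156-69654474). In 786-M1A it had 129, 151, 139 and 139 CPM with sgNTC18, 34.8, 25.3, 25.04 and 23.8 CPM with shPAX8-1, and 54.7, 57.7, 43.7 and 52.7 CPM with shPAX8-2. The 3 groups did not overlap, and MYEOV was 5.13-fold lower with shPAX8-1 (log2 fold change -2.36, 95% CI -2.62 to -2.10, adjusted p = 7.4e-15) and 2.67-fold lower with shPAX8-2 (-1.42, -1.67 to -1.17, adjusted p = 1.5e-10).

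In OS-LM1, MYEOV had 78.1, 69.8, 72.9 and 69.9 CPM with sgNTC18, 8.65, 7.94, 8.75 and 11.004 CPM with shPAX8-1, and 12.6, 10.6, 14.7 and 13.4 CPM with shPAX8-2. All shPAX8 libraries were far below the sgNTC18 libraries, by 7.97-fold with shPAX8-1 (-2.99, 95% CI -3.27 to -2.72, adjusted p = 1.7e-16) and 5.62-fold with shPAX8-2 (-2.49, -2.75 to -2.23, adjusted p = 5.3e-15). The decrease was larger in OS-LM1 than in 786-M1A (difference between the lines -0.86, 95% CI -1.16 to -0.55, adjusted p = 2e-05), although PAX8 itself decreased less in OS-LM1 (difference between the lines 1.87, adjusted p = 7.5e-10). Between the constructs MYEOV was lower with shPAX8-1, at -0.94 in 786-M1A (adjusted p = 1.1e-06) and -0.50 in OS-LM1 (adjusted p = 0.0055), where the highest shPAX8-1 library lay within the shPAX8-2 range.

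The ratio of CCND1 to MYEOV was higher with shPAX8 in both lines. In TPM it was 2.497 ± 0.166 (SD, n = 4) with sgNTC18, 7.99 ± 0.266 with shPAX8-1 and 8.80 ± 1.15 with shPAX8-2 in 786-M1A. In OS-LM1 it was 4.22 ± 0.394, 17.8 ± 3.12 and 18.5 ± 2.07 in the same order. Ranges with sgNTC18 and with either hairpin did not overlap in either line, and those of the hairpins overlapped each other.

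The genes around this locus were taken from a list of 17 at 11q13.3 that includes CCND1 and MYEOV, of which 10 were tested. ANO1, FGF3, FGF4, FGF19, LINC01488, MRGPRD and MRGPRF were too low to test. With shPAX8-1 against sgNTC18 in 786-M1A, 2 rose and 8 fell (median log2 fold change -0.94, against 0.01 over all genes tested). With shPAX8-2 in that line 3 rose and 6 fell (-0.60, against 0.01). In OS-LM1 1 rose and 7 fell with shPAX8-1 (-0.35, against 0.00136), and 1 rose and 6 fell with shPAX8-2 (-0.38, against -0.03). After the GC trend of each library was removed, an alternative, these counts became 2 and 7, 3 and 6, 3 and 4, and 2 and 5. Over these 10 genes more fell than rose in all 4 contrasts and under this alternative, but the counts include CCND1 and MYEOV themselves. Both were among the falls with shPAX8-1 in OS-LM1, also with the GC trend removed. Under that alternative the remaining neighbours there had more rises than falls. Of all genes tested, 30.8% to 34.9% rose and 31.5% to 34.6% fell in these contrasts in the reported fit. The counts are a description without a test.

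LTO1, listed as ORAOV1 in the tables and required for ribosome and iron-sulphur protein biogenesis, is the next gene of the list on the far side of CCND1. Its estimated decrease was larger in 786-M1A than in OS-LM1, and a test of that difference is not reported here. Its mean was 23.6 ± 2.35 CPM (SD, n = 4) with sgNTC18 in 786-M1A, and its log2 fold changes were -2.76 (adjusted p = 2.1e-13) with shPAX8-1 and -2.18 (adjusted p = 2.6e-11) with shPAX8-2. In OS-LM1 they were -0.38 (adjusted p = 0.034) and -0.47 (adjusted p = 0.01). TPCN2, a lysosomal ion channel on the MYEOV side, fell with shPAX8-1 and shPAX8-2 in 786-M1A (-2.47 and -0.80, adjusted p = 9.4e-14 and 1.2e-05), and in OS-LM1 its values were 0.02 and 0.15 (adjusted p = 0.92 and 0.29).

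FADD, the adaptor of death receptors, fell in all 4 contrasts (-1.71 and -1.20 in 786-M1A and -0.50 and -0.38 in OS-LM1). CTTN, which encodes the actin-binding protein cortactin, fell in 786-M1A (-0.78 and -0.39) and rose in OS-LM1 (0.33 and 0.47), and SHANK2, a scaffold protein, rose in 786-M1A (1.02 and 1.04) and fell in OS-LM1 (-0.33 and -0.57). For these 3 genes the first value of each pair is the log2 fold change with shPAX8-1 and the second that with shPAX8-2, and the highest adjusted p was 0.024. IGHMBP2, a helicase gene, fell in all 4 contrasts (-1.11 and -1.13 in 786-M1A, -0.76 and -0.70 in OS-LM1, highest adjusted p = 7e-04). PPFIA1, which encodes a liprin, rose with both constructs in 786-M1A (0.55, adjusted p = 3e-06, and 0.26, adjusted p = 0.0096), fell with shPAX8-1 in OS-LM1 (-0.20, adjusted p = 0.038) and was at -0.07 there with shPAX8-2 (adjusted p = 0.46). MRPL21, a mitochondrial ribosomal protein gene, fell with shPAX8-1 in 786-M1A (-0.39, adjusted p = 0.026), its other values were -0.31, 0.25 and 0.06 (adjusted p 0.085 to 0.72), and with sgNTC18 it was higher in OS-LM1 than in 786-M1A (0.70, adjusted p = 0.00021). Among the tested neighbours MYEOV thus had the lowest fold change in OS-LM1 with both constructs, while in 786-M1A that of LTO1 was lower with both and that of TPCN2 with shPAX8-1. These differences between genes were not tested.

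**Figure D3:**
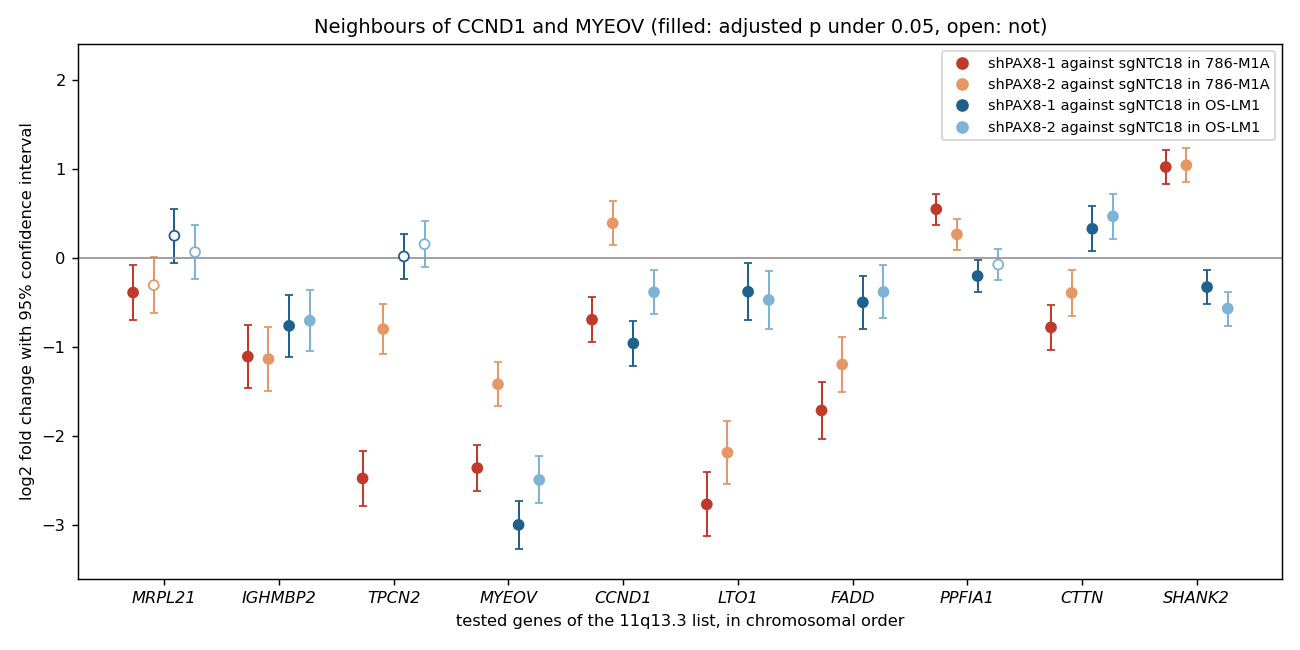
Log2 fold change against sgNTC18 of the tested genes at 11q13.3, in chromosomal order, for each line and construct. Bars are 95% confidence intervals from edgeR, and filled points had an adjusted p under 0.05. LTO1 reaches -2.76 with shPAX8-1 in 786-M1A and -0.38 in OS-LM1, whereas MYEOV is at -1.42 or lower in all 4 contrasts.

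CDK4 fell modestly with shPAX8 in both lines, and CDK6 moved in different directions in the lines. In 786-M1A, CDK4 had 214, 228, 249 and 238 CPM with sgNTC18, 177, 168, 133 and 132 CPM with shPAX8-1, and 189, 195, 192 and 211 CPM with shPAX8-2. No library of one group lay within the range of another. The log2 fold change was -0.61 with shPAX8-1 (95% CI -0.80 to -0.42, adjusted p = 2.1e-06) and -0.24 with shPAX8-2 (-0.43 to -0.05, adjusted p = 0.026). The latter call was lost under DESeq2 (-0.20, adjusted p = 0.052) and with its size factors in edgeR (-0.20, adjusted p = 0.067). It was also lost in the fit of that line by itself (-0.22, adjusted p = 0.082) and in 5 of the 24 fits without 1 library. Between the constructs CDK4 differed by -0.37 (adjusted p = 0.0023), and by -0.18 (adjusted p = 0.19) without replicates 3 and 4 of shPAX8-1.

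In OS-LM1, CDK4 had 334, 315, 319 and 327 CPM with sgNTC18, 240.3, 202, 204 and 229 CPM with shPAX8-1, and 217, 207, 245 and 227 CPM with shPAX8-2. The sgNTC18 libraries were above all shPAX8 libraries (log2 fold changes -0.56, adjusted p = 7.3e-06, and -0.53, adjusted p = 1.9e-05), and the constructs overlapped (-0.03, 95% CI -0.22 to 0.16, adjusted p = 0.84). The change in CDK4 differed between the lines by -0.12 (95% CI -0.36 to 0.11, adjusted p = 0.37). Without replicates 3 and 4 of 786-M1A shPAX8-1 that difference was called (-0.25, adjusted p = 0.031).

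CDK6 was lower in 786-M1A only with shPAX8-2 among the constructs. The libraries of that line had 362, 286, 323 and 307 CPM with sgNTC18, 279.9, 293, 358 and 326 CPM with shPAX8-1, and 175, 164, 177 and 139 CPM with shPAX8-2. The shPAX8-2 libraries lay below all others, at -0.97 against sgNTC18 (95% CI -1.17 to -0.76, adjusted p = 3.2e-09), while shPAX8-1 overlapped sgNTC18 (-0.02, -0.22 to 0.17, adjusted p = 0.84). With the GC trend removed the shPAX8-1 value was -0.37 (adjusted p = 0.00017). The difference between the constructs was 0.94 (adjusted p = 3.6e-08), and it was called without either pair of shPAX8-1 libraries (1.05 and 0.81).

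In OS-LM1, CDK6 rose with both constructs. It had 338, 325, 355 and 341 CPM with sgNTC18, 489.7, 495, 486 and 462 CPM with shPAX8-1, and 479.8, 519, 474 and 397 CPM with shPAX8-2. All shPAX8 libraries exceeded all sgNTC18 libraries (0.51, adjusted p = 4.8e-05, and 0.46, adjusted p = 0.00017). The change with shPAX8 differed between the lines by 0.98 (95% CI 0.74 to 1.22, adjusted p = 9.4e-08), and the difference between the constructs by -0.89 (-1.17 to -0.61, adjusted p = 3.3e-05).

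On the TPM scale CDK4 was the more abundant kinase in every group. The TPM ratio of CDK4 to CDK6 was 4.32 ± 0.564 (SD, n = 4) with sgNTC18, 2.92 ± 0.749 with shPAX8-1 and 7.18 ± 1.19 with shPAX8-2 in 786-M1A, and 5.63 ± 0.235, 2.67 ± 0.272 and 2.86 ± 0.445 in OS-LM1. The ratio was therefore highest with shPAX8-2 in 786-M1A, and in OS-LM1 it was lower in all shPAX8 libraries than in any sgNTC18 library.

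The promoter of CDK4 is shown because it held more E-boxes than any other member promoter searched, with the matches to CACGTG in capitals (250 bases before to 50 after the start, RefSeq on GRCh38.p14, chr12:57752261-57752560, minus strand).
CDK4 promoter: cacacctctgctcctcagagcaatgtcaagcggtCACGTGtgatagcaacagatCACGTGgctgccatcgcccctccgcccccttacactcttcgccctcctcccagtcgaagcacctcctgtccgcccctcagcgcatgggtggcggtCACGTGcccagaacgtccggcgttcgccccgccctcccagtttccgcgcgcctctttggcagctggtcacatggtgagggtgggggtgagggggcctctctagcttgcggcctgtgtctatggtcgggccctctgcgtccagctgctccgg
The 3 matches begin 216, 196 and 101 bases before the start, and 7.26% of 35116 promoters of this length held at least 1. CACGTG reads the same on both strands and contains the hypoxia core ACGTG, which was searched on both strands and occurs in 21.4% of promoters. Entries were found for 6 of the 9 members, 10 promoters in all.

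Among the RB family, RBL1 fell in all contrasts with sgNTC18, RBL2 rose in 786-M1A and fell in OS-LM1, and RB1 was higher only with shPAX8-1 in 786-M1A. RBL1 encodes p107, a pocket protein whose gene is itself an E2F target. In 786-M1A it had 47.9, 34.1, 41.4 and 41.8 CPM with sgNTC18, 13.33, 15.3, 17.5 and 16.5 CPM with shPAX8-1, and 26.9, 26.5, 30.3 and 23.3 CPM with shPAX8-2. The groups were ordered without overlap, with log2 fold changes of -1.40 (95% CI -1.64 to -1.16, adjusted p = 4.4e-11) and -0.63 (-0.86 to -0.40, adjusted p = 2.9e-05).

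In OS-LM1 RBL1 had 49.8, 45.5, 46.4 and 48.7 CPM with sgNTC18, 15.0, 15.6, 15.0 and 13.7 CPM with shPAX8-1, and 25.5, 26.7, 20.8 and 20.8 CPM with shPAX8-2. The same order appeared without overlap (-1.69, adjusted p = 1.5e-12, and -1.03, adjusted p = 1.4e-08). Between the constructs RBL1 was lower with shPAX8-1 in both lines, at -0.77 (adjusted p = 9e-06) and -0.66 (adjusted p = 0.00014). In the reported fit these differences did not themselves differ between the lines beyond their error (0.11, 95% CI -0.22 to 0.45, adjusted p = 0.65). With the GC trend removed, that difference between the lines was called (0.41, adjusted p = 0.011). Without replicates 1 and 2, or 3 and 4, of shPAX8-1 the 786-M1A difference was -0.66 (adjusted p = 0.00022) and -0.89 (adjusted p = 3.8e-05).

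The RBL1 promoter is shown for its 2 matches to the E2F motif TTTNGCGC, in capitals, searched on both strands (chr20:37095948-37096247 of GRCh38.p14, RefSeq, minus strand).
RBL1 promoter: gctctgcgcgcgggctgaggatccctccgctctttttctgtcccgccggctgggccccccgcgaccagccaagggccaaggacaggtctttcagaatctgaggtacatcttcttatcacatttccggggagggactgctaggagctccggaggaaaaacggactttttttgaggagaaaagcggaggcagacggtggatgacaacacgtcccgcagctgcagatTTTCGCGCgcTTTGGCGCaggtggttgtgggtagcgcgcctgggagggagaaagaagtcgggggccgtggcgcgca
They begin 26 and 16 bases before the start. Of all promoters 1.79% held a match, and among the 10 member entries searched it was this 1 alone. The RB1 entry lies within the gene, so that the window at its first start was not searched.

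RB1, the retinoblastoma gene, had 109, 85.4, 97.9 and 88.8 CPM with sgNTC18 in 786-M1A, 100.2, 128, 185 and 183 CPM with shPAX8-1, and 83.9, 82.9, 108 and 77.2 CPM with shPAX8-2. Replicates 3 and 4 of shPAX8-1 were the highest of the line, while replicate 1 lay within the sgNTC18 range. RB1 was called higher with shPAX8-1 than with sgNTC18 (0.65, 95% CI 0.33 to 0.96, adjusted p = 0.00057) and than with shPAX8-2 (0.76, adjusted p = 0.00026), but without replicates 3 and 4 neither was called (0.30, adjusted p = 0.079, and 0.38, adjusted p = 0.055). In OS-LM1 the libraries had 174, 163, 190.2 and 178 CPM with sgNTC18, 197, 159.9, 192 and 178 CPM with shPAX8-1, and 188, 216, 142 and 158 CPM with shPAX8-2. These groups overlapped (0.04, 95% CI -0.27 to 0.36, adjusted p = 0.81, and -0.0022, -0.32 to 0.31, adjusted p = 0.99). With the GC trend removed, RB1, the member with the lowest GC content (37.1%), was called lower in OS-LM1 with both constructs (-0.32, adjusted p = 0.00044, and -0.33, adjusted p = 0.00026).

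RBL2, which encodes p130, the pocket protein of resting cells, went opposite ways in the lines. In 786-M1A it had 84.1, 74.5, 79.1 and 78.6 CPM with sgNTC18, 105, 108, 121 and 123 CPM with shPAX8-1, and 115, 108, 112 and 102 CPM with shPAX8-2, so that all shPAX8 libraries were higher (0.53, adjusted p = 1.3e-06, and 0.46, adjusted p = 1.4e-05). In OS-LM1 it had 60.1, 65.9, 67.0 and 70.3 CPM with sgNTC18, 55.9, 57.9, 57.6 and 54.3 CPM with shPAX8-1, and 56.7, 52.5, 51.2 and 50.6 CPM with shPAX8-2. There all shPAX8 libraries were lower, by a small margin (-0.22, adjusted p = 0.016, and -0.32, adjusted p = 0.00098). The change differed between the lines by -0.77 (95% CI -0.97 to -0.57, adjusted p = 1.8e-07), and the constructs did not differ beyond their error in either line (0.07, -0.09 to 0.23, adjusted p = 0.49, and 0.10, -0.07 to 0.26, adjusted p = 0.42).

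In TPM, RB1 made up 45.9% ± 1.23 (SD, n = 4) of the RB family transcripts with sgNTC18 in 786-M1A and 62.6% ± 1.59 in OS-LM1. With shPAX8-1 and shPAX8-2 the share was 53.6% ± 5.35 and 40.4% ± 2.80 in 786-M1A, and 72.7% ± 2.21 and 70.8% ± 2.54 in OS-LM1. RBL1 was the least abundant of the 3 in each group, at 4.78 to 14.9 TPM.

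**Figure D4:**
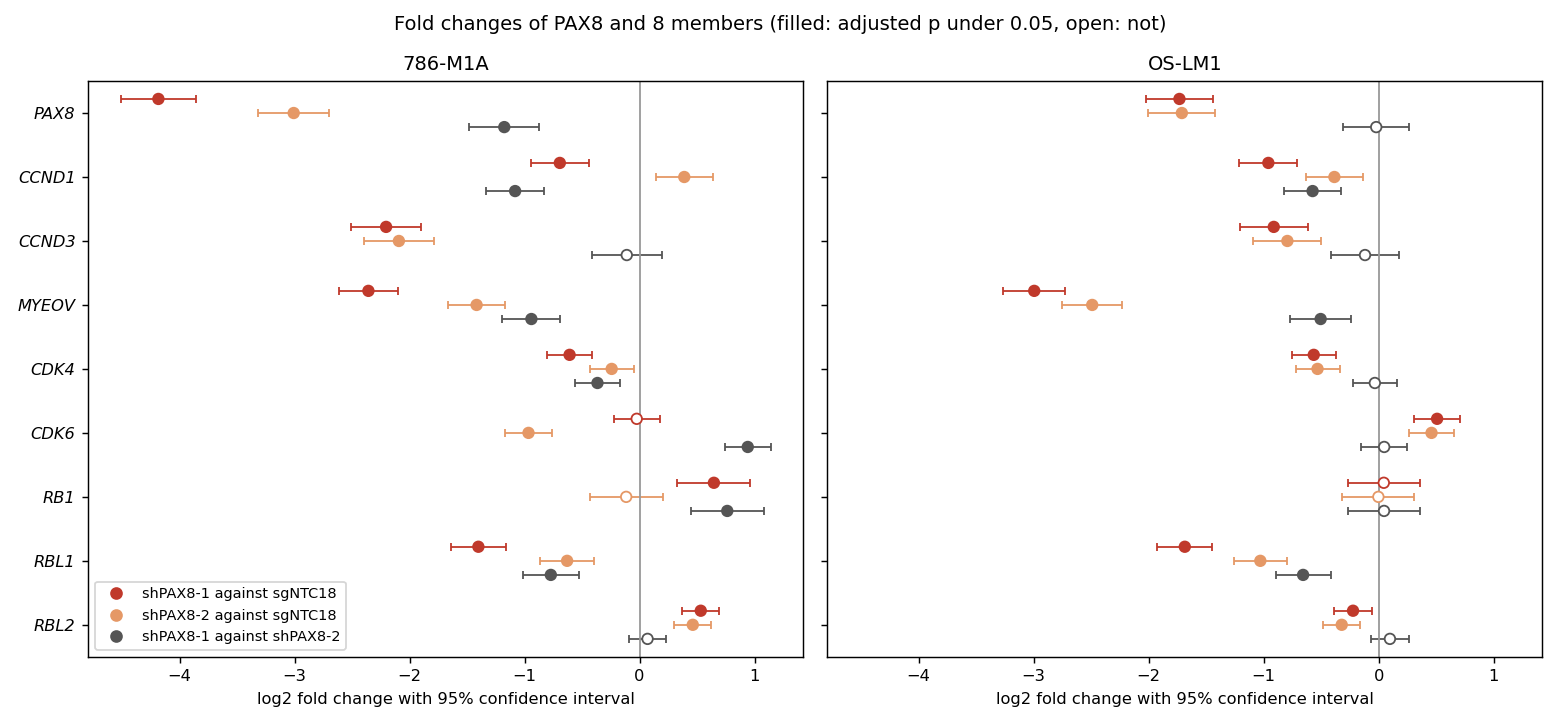
Log2 fold change of PAX8 and the 8 tested members in 786-M1A (left) and OS-LM1 (right), for each construct against sgNTC18 and for shPAX8-1 against shPAX8-2, with 95% confidence intervals from edgeR and filled points where the adjusted p was under 0.05. The intervals of CCND1, CDK6 and RBL2 with shPAX8-2 lie on opposite sides of 0 in the lines. MYEOV, CCND3 and RBL1 lie below 0 in all 4 of those contrasts.

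Counts of members were read against the share of all genes called. For shPAX8-1 against shPAX8-2 in 786-M1A, CDK6 and RB1 rose, against 24.9% of genes tested, and CCND1, CDK4, MYEOV and RBL1 fell, against 23.2%. This contrast had the strongest trend with GC content, which was 39.7% and 37.1% for the risers and 50.3%, 52%, 57% and 40% for the others, in that order. All these calls were kept with the GC trend removed. In OS-LM1 no member rose by edgeR, by DESeq2 or at an unadjusted p under 0.05 (0 of 8 each), against 11.4%, and CCND1, MYEOV and RBL1 fell, against 11.7%. For shPAX8-1 against sgNTC18 in 786-M1A, 2 of 8 rose (34.9% of genes) and 5 fell (34.6%), and for shPAX8-2 in that line 2 rose (30.8%) and 5 fell (31.5%). In OS-LM1, 1 rose and 6 fell with shPAX8-1 (34% and 32.9% of genes) and with shPAX8-2 (31.4% and 32.1%). The median log2 fold change of the 8 members was -0.65 and -0.44 in 786-M1A and -0.74 and -0.46 in OS-LM1 for shPAX8-1 and shPAX8-2, against medians between -0.03 and 0.01 over all genes. The share of members that rose was thus below that of all genes and the share that fell was above it in each contrast with sgNTC18, as a description over 8 genes that were not drawn at random.

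Between the lines with sgNTC18, CDK4 and RB1 were higher in OS-LM1 (32% of genes tested were), and CCND3, MYEOV and RBL2 were lower (31%). CCND1 differed by -0.18 (95% CI -0.43 to 0.07, adjusted p = 0.2), CDK6 by 0.09 (-0.11 to 0.28, adjusted p = 0.45) and RBL1 by 0.20 (-0.02 to 0.43, adjusted p = 0.11). RB1 differed most upwards (0.89, adjusted p = 1.6e-05) and CCND3 most downwards (-1.19), with MYEOV at -0.94 (adjusted p = 1.2e-07). CDK4 was 1.39-fold higher in OS-LM1 (0.48, adjusted p = 7e-05) and RBL2 1.20-fold lower (-0.26, adjusted p = 0.0049).

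With shPAX8, averaged over the constructs, CDK4, CDK6 and RB1 were higher in OS-LM1 (41.7% of genes) and CCND1, MYEOV and RBL2 lower (41.5%). MYEOV differed by -1.80 (adjusted p = 3.6e-16), CDK6 by 1.07 (adjusted p = 8e-14) and RBL2 by -1.03 (adjusted p = 2.1e-15). The test of the difference in change with shPAX8 between the lines called CCND3 and CDK6 upwards (29.9% of genes) and CCND1, MYEOV, RBL1 and RBL2 downwards (28.8%). The test of the difference between the constructs across the lines called CCND1 upwards (12.7% of genes) and CDK6 and RB1 downwards (14.5%). Of these, RBL1 (-0.34, adjusted p = 0.036) was lost in 8 of 24 fits without 1 library. CCND1 (0.51, adjusted p = 0.029) was likewise lost in 8 of 24 such fits, and was 0.39 (adjusted p = 0.16) without replicates 3 and 4 of shPAX8-1. RB1 (-0.72, adjusted p = 0.016) was -0.33 (adjusted p = 0.26) without that pair.

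Downstream of the pocket proteins, E2F target genes fell together. Of 20 listed targets, which include RBL1, none rose in any contrast with sgNTC18 by edgeR, by DESeq2 or at an unadjusted p under 0.05 (0 of 20 each) with all libraries. Of these, 1 was higher and 19 were lower with shPAX8-1 in 786-M1A once its replicates 1 and 2 were left out. In 786-M1A 19 fell with shPAX8-1 (median log2 fold change -2.01), 19 fell with shPAX8-2 (-1.32), and 20 and 17 fell with shPAX8-1 and shPAX8-2 in OS-LM1 (-1.83 and -1.24). Between the constructs 17 were lower and 1 higher with shPAX8-1 in 786-M1A (-0.75, against -0.02 over all genes), and 18 were lower in OS-LM1 (-0.67, against 0), with 0 higher by edgeR, by DESeq2 or at an unadjusted p under 0.05. Without replicates 1 and 2 of shPAX8-1 the 786-M1A count between constructs was 17 lower and 1 higher, and without replicates 3 and 4 it was 16 and 1. With the GC trend removed it was 15 and 1. Of all genes tested, 30.8% to 34.9% rose and 31.5% to 34.6% fell in the contrasts with sgNTC18. Between the constructs 24.9% were higher and 23.2% lower in 786-M1A, and 11.4% and 11.7% in OS-LM1. Between the lines with sgNTC18, 32% were higher and 31% lower in OS-LM1. The counts of the lists that follow are to be read beside the same shares.

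MCM3, a subunit of the replicative helicase, averaged 109 ± 7.57 CPM (SD, n = 4) with sgNTC18 in 786-M1A, 10.0 ± 2.71 with shPAX8-1 and 30.8 ± 3.50 with shPAX8-2, a difference between the constructs of -1.61 (adjusted p = 1.8e-09). MCM5, of the same helicase, differed by -1.45 (adjusted p = 1.8e-07). In OS-LM1 the largest differences between constructs were in MYBL2, a transcription factor of S and G2 phase (-1.16, adjusted p = 5.2e-08), and RRM2, the small subunit of ribonucleotide reductase (-1.03, adjusted p = 4.9e-09). The 1 target that was higher with shPAX8-1 in 786-M1A was CCNA2, or cyclin A (0.75, adjusted p = 5.2e-05), which against sgNTC18 was 0.25 there (adjusted p = 0.092) and -2.15 in OS-LM1 (adjusted p = 3.3e-13). Between the lines with sgNTC18, 4 targets were higher and 5 lower in OS-LM1, MYBL2 (-2.32, adjusted p = 1.3e-15) and MCM4 (-1.51, adjusted p = 1.3e-11) among the latter.

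**Figure D5:**
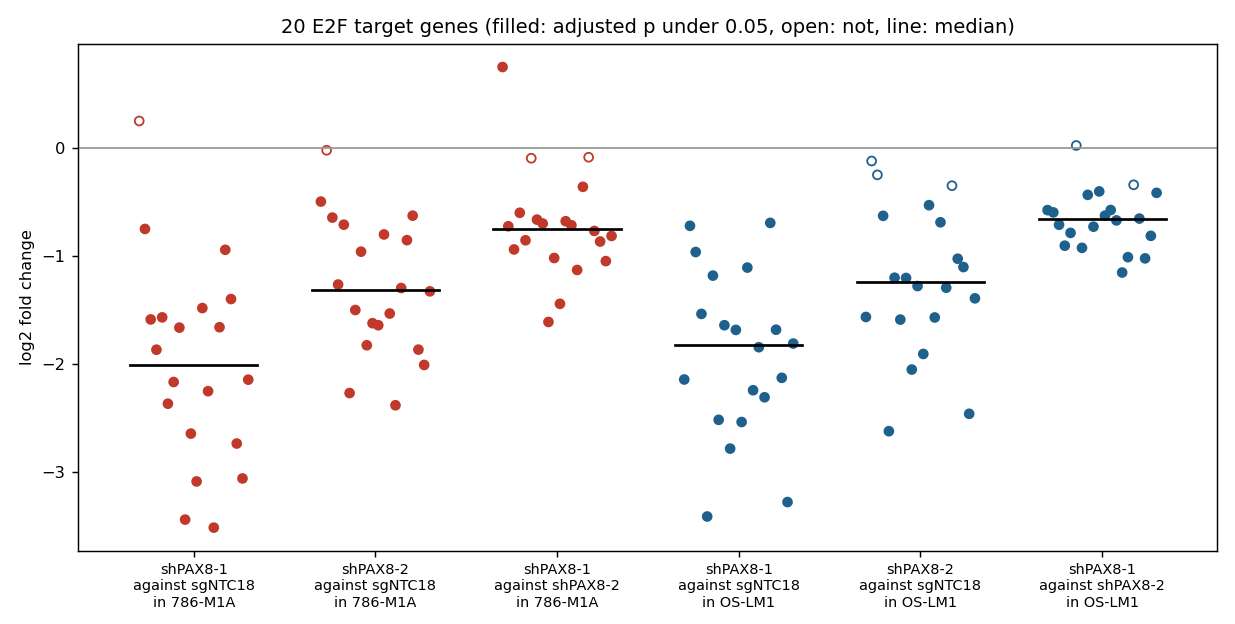
Log2 fold change of the 20 E2F target genes for each construct against sgNTC18 and between the constructs, in both lines. Each point is a gene, filled where its adjusted p was under 0.05, and each line is the median. Against sgNTC18 the medians are -2.01 and -1.32 with shPAX8-1 and shPAX8-2 in 786-M1A and -1.83 and -1.24 in OS-LM1.

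Of 7 CDK inhibitor genes 5 were tested, and CDKN2A and CDKN2B were listed at 0 in all libraries. CDKN1A, which encodes p21, a CDK inhibitor that also assembles cyclin D complexes, fell in 786-M1A from 706 ± 42.9 CPM (SD, n = 4) with sgNTC18 to 190 ± 22.2 with shPAX8-1 (-1.89, adjusted p = 9.5e-16) and 414 ± 21.3 with shPAX8-2 (-0.77, adjusted p = 2.5e-08). In OS-LM1 it rose from 451 ± 31.7 to 642 ± 34.3 and 639 ± 55.1 CPM (0.51 and 0.50, adjusted p = 1.3e-05 and 1.6e-05). CDKN2C, which encodes the CDK4 and CDK6 inhibitor p18, fell in all 4 contrasts (log2 fold changes -2.51 to -2.07).

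CDKN1B, or p27, differed by 0.49 between the constructs in 786-M1A (adjusted p = 0.001). Over the list, 1 rose and 2 fell between constructs in 786-M1A and none was called in OS-LM1 by edgeR or by DESeq2, with 1 at an unadjusted p under 0.05. Against sgNTC18, 2 rose and 2 fell with shPAX8-1 and 1 rose and 2 fell with shPAX8-2 in 786-M1A, and 2 rose and 3 fell with either construct in OS-LM1. Between the lines with sgNTC18 1 was higher and 3 were lower in OS-LM1, CDKN1A at -0.65 (adjusted p = 3.8e-07).

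Of the 6 genes for cyclin E, cyclin A and CDK2 and its activating phosphatase, 2 rose and 4 fell between the constructs in 786-M1A and 1 rose and 5 fell in OS-LM1. CDC25A, that phosphatase, was lower with shPAX8-1 in both lines (-0.80, adjusted p = 5e-05, and -0.77, adjusted p = 0.00032), and CDK2 was lower in OS-LM1 (-0.62, adjusted p = 4.7e-06). Against sgNTC18 none rose (0 of 6 by edgeR, by DESeq2 and at an unadjusted p under 0.05) and 4 fell with each construct in 786-M1A, and in OS-LM1 1 rose and 5 fell with shPAX8-1 and 1 rose and 3 fell with shPAX8-2. In 786-M1A 1 was higher and 4 were lower with shPAX8-1 once its replicates 1 and 2 were left out. CCNE1, cyclin E1, was 0.97 higher on the log2 scale in OS-LM1 with sgNTC18 (adjusted p = 5.3e-07).

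Among 10 E2F and DP factors, 3 rose and 5 fell between the constructs in 786-M1A, and 1 rose and 4 fell in OS-LM1. E2F7, a repressor of the family, averaged 87.8 ± 6.99 CPM (SD, n = 4) with sgNTC18 in 786-M1A, 141 ± 18.9 with shPAX8-2 and 447 ± 52.5 with shPAX8-1 (1.67 between the constructs, adjusted p = 3e-12). E2F1, an activator, fell in all 4 contrasts with sgNTC18 (log2 fold changes -2.52 to -1.503), and was lower with shPAX8-1 than with shPAX8-2 in OS-LM1 (-0.93, adjusted p = 0.00024), as was E2F8, a repressor (-1.09, adjusted p = 1.1e-05). E2F5, a repressor that works with pocket proteins, differed between the constructs, with more under shPAX8-1, in 786-M1A (0.98, adjusted p = 8.6e-05). With sgNTC18, E2F5 was lower in OS-LM1 than in 786-M1A (-2.37, adjusted p = 1.8e-10), and TFDP1, the dimer partner of E2F factors, was higher (0.69, adjusted p = 4.9e-06). Of the 10 factors, 2 rose and 6 fell with shPAX8-1 and 2 rose and 7 fell with shPAX8-2 in 786-M1A, and 3 rose and 5 fell, and 4 rose and 5 fell, in OS-LM1.

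Of 7 genes of a MuvB and DREAM list, 3 rose and 3 fell between the constructs in 786-M1A, and 1, MYBL2, fell in OS-LM1. MYBL2 is also among the listed E2F targets. LIN52, a MuvB subunit, was higher with shPAX8-1 in 786-M1A (1.11, adjusted p = 2.4e-05). Among 10 genes for cyclin D turnover and CDK activation, 5 rose and 1 fell between the constructs in 786-M1A, and none rose and 2 fell in OS-LM1. For both lists edgeR, DESeq2 and an unadjusted p under 0.05 each gave 0 genes higher there. GSK3B, the kinase that marks cyclin D1 for export and degradation, was higher with shPAX8-1 in 786-M1A (1.00, adjusted p = 6.2e-08), as was CDK7 of the CDK-activating kinase (1.05, adjusted p = 9.1e-07). CRYAB, a chaperone and part of a ubiquitin ligase for cyclin D1, differed most between the lines with sgNTC18 (4.89 higher in OS-LM1, adjusted p = 1.6e-19), followed by CCNH, the cyclin partner of CDK7 (1.55 higher, adjusted p = 3.2e-09). FBXO31, an F-box protein for cyclin D1, was lower with shPAX8-1 than with shPAX8-2 in OS-LM1 (-0.42, adjusted p = 0.041), and CRYAB likewise (-0.77, adjusted p = 0.00013). Against sgNTC18, 3 rose and 2 fell, 1 rose and 2 fell, 1 rose and 2 fell, and 1 rose and 3 fell in the MuvB and DREAM list for shPAX8-1 and shPAX8-2 in 786-M1A and then in OS-LM1. In the turnover list the counts were 5 and 2, 2 and 1, 5 and 3, and 4 and 2 in that order. Counts between the constructs in 786-M1A rested in part on replicates 3 and 4 of shPAX8-1. Without them 2 turnover genes were higher and 0 lower (median log2 fold change 0.12), the MuvB and DREAM list had 2 and 2, the E2F and DP factors 2 and 2, and the CDK inhibitors 0 and 1, while without replicates 1 and 2 the counts were 6 and 2, 4 and 3, 3 and 5, and 1 and 2.

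Among the genes whose profile over the 24 libraries came nearest to that of CCND1 were SLC2A1, the glucose transporter GLUT1 (root mean square difference of centred log2 CPM 0.19), and ZNF687 (0.21), where the median over 9362 genes compared was 0.76. For MYEOV they were FOXRED1 (0.27), FANCA (0.32) and POLD1 (0.33), with a median of 1.49. A gene at the same level in all libraries would lie at 0.52 from CCND1 and at 1.39 from MYEOV. The likenesses are of level across libraries that share groups and depth, given as a description.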

How the data were processed

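Per the labels and methods, the authors aligned reads to hg38 with Bowtie2 and RSEM (versions not given in the sources used here) and deposited, per gene and library, RSEM expected counts and TPM, besides FPKM, which were not used. The labels name a stranded mRNA kit and the methods another. Total expected counts set the precision (11634419 to 52059375 per library).

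Expected counts were rounded and 24 libraries fitted together as 6 groups with the robust quasi-likelihood test of edgeR 4.0.16 in R 4.3.3 (filterByExpr, TMM, Benjamini-Hochberg over 15665 genes, calls at an adjusted p under 0.05), after tests on simulated data. CPM use TMM library sizes, and TPM served to compare genes and, for CCND1 in 786-M1A, as a second look at its range. No replicate pair agreed within sampling noise (lowest chi-square per gene 3.87), so every library was counted (n = 4 throughout). That does not show that the libraries came from separate cultures. In 786-M1A shPAX8-1 the value was 3.87 for replicates 3 and 4, 15.9 for replicates 1 and 2, and 50.5 to 87.7 across these pairs. Named list genes were the 2 with the largest called change per list at an average log2 CPM of at least 3 between constructs and between lines with sgNTC18, with every tested 11q13.3 gene and the 3 nearest profiles of CCND1 and MYEOV (1 of which is not reported here), and others were chosen after their values were seen. Members and lists were chosen with earlier results of these data known. Alternatives were DESeq2 1.42.0 and its size factors, no filter, separate fits, the replicate block, GC trend removal (spline with 5 df), a log2 threshold of 0.58, each library left out, and either pair of 786-M1A shPAX8-1 libraries left out.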

Additional observations from a re-analysis of the deposited data

Results flagged for a closer look

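Among 60 groups of 4 libraries (PAX8 and the 9 members, in 6 groups), 5 values stood apart from their group. The first was MYEOV in replicate 1 of 786-M1A shPAX8-1, at 34.8 CPM, where the other libraries had 23.8 to 25.3 CPM and the gap took up 0.86 of the range. The other 4 were CCND2 values in groups where the remaining libraries were at 0: 0.261 CPM in the same library, 0.0569 CPM in replicate 1 of 786-M1A shPAX8-2, 0.0845 CPM in replicate 1 of OS-LM1 sgNTC18 and 0.0597 CPM in replicate 2 of OS-LM1 shPAX8-2, which are 1 to 5 expected counts each. For continuous values, chance alone marks about 1 in 20 groups in this way. That rate does not hold for these CCND2 groups, where a single library with any count is always marked. Replicate 1 of 786-M1A shPAX8-1 also had the highest CCND1 value of its group.

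The following differences between the lines (OS-LM1 minus 786-M1A, log2 scale) passed the test of the difference itself. For shPAX8 against sgNTC18, CCND1 differed by -0.52, CCND3 by 1.30, CDK6 by 0.98, MYEOV by -0.86, RBL1 by -0.34 and RBL2 by -0.77. For shPAX8-1 against shPAX8-2, CCND1 differed by 0.51, CDK6 by -0.89 and RB1 by -0.72. Of these, CCND1 and RB1 in the second comparison and RBL1 in the first lost their call without single libraries or a pair of them.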

How the results depend on the processing

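Of 2552 log2 fold changes of members recomputed under the alternatives, 2461 kept direction and side of the threshold, 32 lost and 23 gained a call, and 36 changed sign, none of them called in the reported fit. With a log2 threshold of 0.58, 4536 genes were called between the constructs in 786-M1A and 1895 (1 member) in OS-LM1, where 7536 and 3625 (3 members) were called without it. Under that threshold 4 members were called for shPAX8-2 against sgNTC18 in 786-M1A, 4 and 3 for shPAX8-1 and shPAX8-2 in OS-LM1, and 3 between the lines with sgNTC18, in place of 7, 7, 7 and 5.

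Without replicates 1 and 2 of 786-M1A shPAX8-1, the difference of the construct contrast between the lines called 5 members and 6817 genes in place of 3 and 4264. MYEOV at 0.61 (adjusted p = 0.0056) and CDK4 at 0.55 (adjusted p = 0.00081) were among them. In that fit RB1 gained a call in the change with shPAX8 between the lines (-0.43, adjusted p = 0.012). RBL1 gained one between the lines with shPAX8 (-0.21, adjusted p = 0.029). Without replicates 3 and 4 the difference of the construct contrast between the lines called 1 member and 2579 genes (CCND1 0.39), and the construct contrast in 786-M1A called 3890 genes. Fits of subsets gave -0.19 (adjusted p = 0.046) for CCND1 between the lines with sgNTC18 and 0.51 (adjusted p = 0.053) for its construct contrast between the lines. The cause of these changes was not tested, beyond the fewer libraries in each fit.

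Signs turned as follows. Against sgNTC18 with shPAX8-1 in 786-M1A, CDK6 was 0.0141 with DESeq2's size factors, 0.0140 with DESeq2 and 0.12 without replicates 1 and 2. With shPAX8-2 in OS-LM1, RB1 was 0.0272 with the size factors, 0.0278 with DESeq2 and 0.0055 in the fit of that line. With the GC trend removed, CCND3 and RBL2 between the constructs in 786-M1A were 0.21 and -0.12, CDK4 between them in OS-LM1 0.0245, RB1 with shPAX8-1 in OS-LM1 -0.32, and CDK6 between the lines with sgNTC18 -0.0075. Without replicates 1 and 2, the construct contrast differed between the lines by 0.35 for CCND3 and -0.0527 for RBL2. Without replicates 3 and 4, CCND3 and RBL2 between the constructs in 786-M1A were 0.17 and -0.0273, and CCND3 between the lines with shPAX8 -0.0522.

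Replicate numbers did not pair the libraries (mean correlation of same-numbered libraries of a line 0.0031, with 6 of 24 pairs over 0.1). The replicate block changed no call of a member and turned 1 sign, that of CCND3 in the construct contrast between the lines (0.0168).

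With single libraries left out, OS-LM1 construct contrasts ranged over -0.0795 to 0.0133 for CDK4, -0.0216 to 0.10 for CDK6 and -0.0421 to 0.16 for RB1. CDK6 with shPAX8-1 in 786-M1A ranged over -0.0780 to 0.0383, and RB1 with shPAX8-2 in OS-LM1 over -0.12 to 0.0856. The construct contrast between the lines ranged over 0.43 to 0.61 for CCND1, -0.12 to 0.11 for CCND3, 0.33 to 0.57 for MYEOV and -0.0107 to 0.0659 for RBL2, with 2 to 5 members called. Calls lost were those of CCND1 in that contrast (without any of OS-LM1 shPAX8-1 replicates 2 and 3, OS-LM1 shPAX8-2 replicates 2 and 4, 786-M1A shPAX8-1 replicates 3 and 4 and 786-M1A shPAX8-2 replicates 1 and 2, adjusted p up to 0.078), of RBL1 in the change with shPAX8 between the lines (786-M1A sgNTC18 replicates 2 to 4, OS-LM1 sgNTC18 replicates 1 and 4, OS-LM1 shPAX8-1 replicate 4 and OS-LM1 shPAX8-2 replicates 3 and 4, up to 0.11), of CDK4 with shPAX8-2 in 786-M1A (786-M1A sgNTC18 replicates 3 and 4 and shPAX8-2 replicates 1 to 3, up to 0.11), and of RBL2 with shPAX8-1 in OS-LM1 (OS-LM1 sgNTC18 replicate 4, 0.055). CCND2 was not detectable at this depth.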
